A study of Mus musculus with 8 samples.

Results

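Transcripts of 10 amino acid transporters of the plasma membrane were measured in mouse liver tumours and in non-tumour liver. The members were taken by name from the gene annotation: Slc38a1, Slc38a2, Slc38a3, Slc38a4, Slc7a1, Slc7a2, Slc7a5, Slc3a2, Slc1a4 and Slc43a1. All 10 were found, each as 1 of the 54838 genes counted, and all 10 passed the filter on low counts. The animals were wild-type male C57BL/6J mice given the liver carcinogen diethylnitrosamine (DEN) into the peritoneum on day 15 and kept on a high-fat diet with SW, a term the labels leave unexplained. Bulk RNA sequencing was done on 4 pieces labelled tumour and 4 labelled non-tumour, at a time point of 30 weeks that the labels place after the injection in 1 field and use for the diet in another. DEN and the diet were shared by both groups, so the non-tumour liver is no untreated liver, and whether the pieces came from separate mice is not stated.

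Hepatocytes take up amino acids from portal blood through carriers that differ in substrate and in driving force. Members of the Slc38 family move small neutral amino acids and glutamine together with sodium, Slc7a1 and Slc7a2 carry arginine, lysine and ornithine, and Slc7a5 exchanges large neutral amino acids only when paired with the heavy chain Slc3a2 (CD98). Several of these genes are known targets of ATF4, the transcription factor that cells use when amino acids run short. Adult hepatocytes are known for a low-affinity arginine carrier (Slc7a2) in place of the widespread high-affinity form (Slc7a1), and Slc7a5 is known from many tumours.

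The 8 libraries held 15446690 to 21977052 gene counts and 5 distinct profiles. Tumours 2 and 4 gave nearly the same counts, and so did the non-tumour pieces numbered 2, 3 and 4. Within these sets the chi-square between gene counts was 1.58 to 3.28 per degree of freedom (4 pairs), against 71.7 to 165 in the other 24 pairs. These near-identical libraries were counted once, which left 3 tumour profiles (1, 2/4 and 3) and 2 non-tumour profiles (1 and 2/3/4), and every mean ± SD below is over profiles. All p-values rest on the spread among these samples, part of which may be technical. Albumin stood at 86661 to 139580 CPM (gene counts scaled to a fixed total, with TMM factors) in tumours and 73299 to 83139 CPM in non-tumour pieces, so liver RNA was present throughout. Tumour 3 stood apart from the other tumours and non-tumour 1 from the other non-tumour pieces. The sum of 6 cholangiocyte markers was 405, 189 and 197 CPM in tumours 1, 2 and 4 and 22.6 CPM in tumour 3, against 33.1 to 39.9 CPM in non-tumour pieces, and Spp1 and Tspan8 made up most of it in tumours 1, 2 and 4. The 5 Kupffer cell markers summed to 138 to 181 CPM in tumours. In non-tumour 1 their sum was 465 CPM, and it was 147 to 149 CPM in non-tumour 2 to 4. In bulk tissue, fewer cells of a type and less RNA per cell cannot be told apart.

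Tumour tissue was compared with non-tumour tissue to ask whether these carriers differ between them. No member passed edgeR's quasi-likelihood test over the 5 profiles, where the Benjamini-Hochberg adjusted p was 0.995 to 0.999 for the 10 members. In that test 0 of 13650 genes passed (0.0%), 451 had an unadjusted p under 0.05, and 0 of the 10 members did. On the same profiles, DESeq2 and limma voom also called 0 members, and 2 and 0 genes in all. The profiles of the groups overlapped for all 10 members, while they did not overlap for 18.3% of all tested genes (8.32% lower in tumours, the rest higher). In the fit 1 member, Slc1a4, was at least 1.5-fold higher in tumours, as were 9.17% of all genes, and 0 members were at least 1.5-fold lower, against 4.27% of all genes. The fold changes had a median of -0.17 log2 units over the members, with 3 positive and 7 negative, beside a median of 0.01 over all tested genes. The members are therefore described by their levels, library by library.

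**Figure D1:**
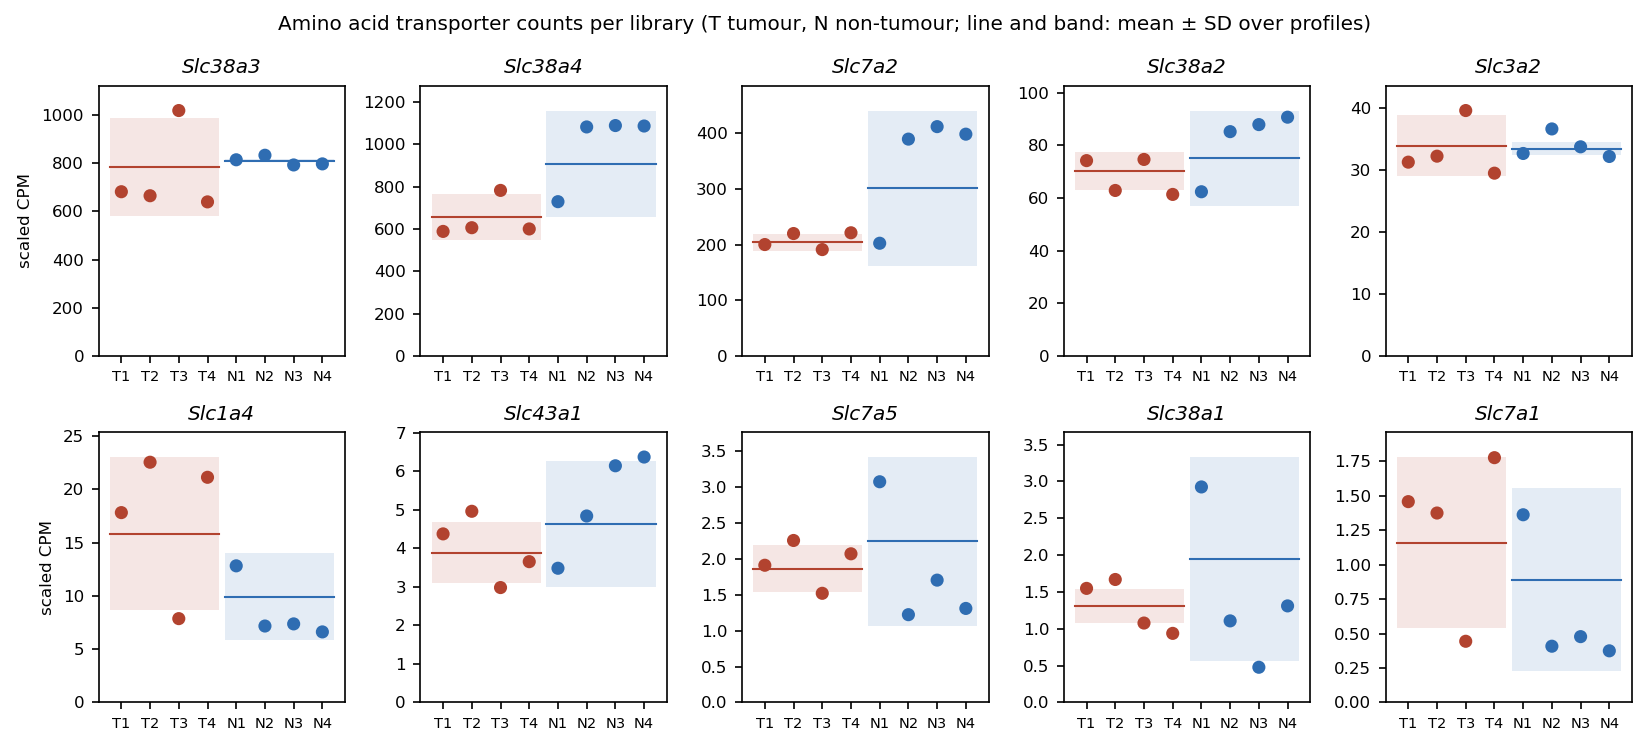
Scaled CPM of the 10 members (1 panel each, linear axes from 0) in tumour libraries T1 to T4 and non-tumour libraries N1 to N4; points are libraries, lines and bands the mean ± SD over 3 tumour and 2 non-tumour profiles. Slc7a2 and Slc38a4 were highest in N2 to N4, and Slc1a4 and Slc7a1 were high in T1, T2, T4 and N1.

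Compared per exon length in TPM (which divides counts by exon length), 3 carriers made up most of the set. Slc38a4, Slc38a3 and Slc7a2 together held 92.5% to 94.6% of the summed TPM of the 10 members in tumours and 94.2% to 95.2% in non-tumour pieces. The sum itself was 646, 775, 706 and 742 TPM in tumours 1 to 4, against 755, 946, 918 and 932 TPM in non-tumour 1 to 4. In TPM each tumour apart from tumour 2 thus lay under every non-tumour piece, and tumour 2 lay between non-tumour 1 and the other 3. Tumours 2 and 4, on either side of non-tumour 1 in TPM, are near-identical libraries. The order differed in summed scaled CPM, where tumour 3 (2121 CPM) lay above non-tumour 1 (1865 CPM). There tumours 1, 2 and 4 (1603, 1619 and 1582 CPM) lay under every non-tumour piece.

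**Figure D2:**
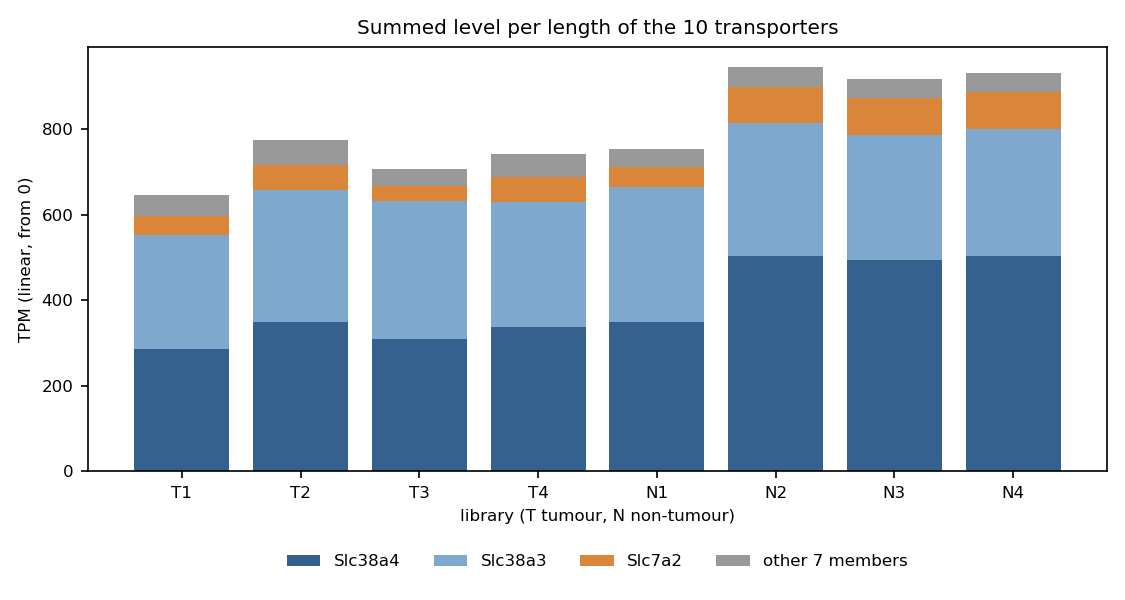
Stacked TPM of Slc38a4, Slc38a3, Slc7a2 and the other 7 members in each tumour (T) and non-tumour (N) library, on a linear axis from 0. The stacks reached 646 to 775 TPM in tumours, 755 TPM in N1 and 918 to 946 TPM in N2 to N4.

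The order of the levels was nearly the same in both groups. In tumours Slc38a4 averaged 313 ± 29.4 TPM and Slc38a3 297 ± 28.9 TPM (SD, n = 3), a gap within their spread. In non-tumour tissue the same genes averaged 425 ± 106 and 308 ± 10.9 TPM (SD, n = 2). Slc7a2 followed at 46.4 ± 11.8 TPM in tumours and 65.7 ± 28.7 TPM in non-tumour tissue. Next came Slc3a2, at 19.5 ± 1.56 TPM in tumours and 19.0 ± 0.0473 TPM in non-tumour tissue, and Slc38a2, at 16.2 ± 1.75 TPM in tumours and 17.0 ± 3.59 TPM in non-tumour tissue. The profiles of these neighbours were apart in tumours and overlapped in non-tumour tissue. Slc1a4 averaged 8.75 ± 5.10 TPM in tumours and 5.10 ± 2.23 TPM in non-tumour tissue. Slc43a1, at 1.43 ± 0.495 TPM in tumours and 1.62 ± 0.521 TPM in non-tumour tissue, overlapped Slc7a5, at 1.06 ± 0.365 TPM in tumours and 1.22 ± 0.673 TPM in non-tumour tissue. Slc7a1 and Slc38a1 came last, at 0.219 ± 0.138 and 0.158 ± 0.0461 TPM in tumours and 0.157 ± 0.120 and 0.229 ± 0.168 TPM in non-tumour tissue, so that their order turned between the groups within their spread.

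Slc38a4 (chromosome 15, 96994820 to 97055956, minus strand, GRCm38) encodes a sodium-coupled carrier of neutral amino acids and is imprinted in the mouse. It stood at 589, 606, 783 and 600.5 CPM in tumours 1 to 4, against 729, 1083, 1089 and 1087 CPM in non-tumour 1 to 4. Non-tumour 2 to 4 were above every tumour, but non-tumour 1 lay under tumour 3. The log2 fold change was -0.47 (SE 0.28) over profiles in edgeR, with an adjusted p of 0.995. Taken as 8 separate libraries it was -0.63 (SE 0.17, edgeR adjusted p = 0.121), a setting in which 0.435% of all genes were called (0.186% higher and 0.248% lower in tumours). It lay between -0.74 and -0.15 when each profile was left out in turn.

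Slc38a3 (chromosome 9, 107650634 to 107669530, minus strand) encodes the glutamine, histidine and asparagine carrier of system N. Its level was 682, 665, 1019 and 640 CPM in tumours 1 to 4, against 814, 833, 793 and 797 CPM in non-tumour 1 to 4. The non-tumour pieces were close together, including non-tumour 1, and the tumours fell on both sides of them, with tumour 3 the highest library. Its log2 fold change was -0.06 (SE 0.28). The ratio of Slc38a4 to Slc38a3 in TPM was 1.07, 1.13, 0.951 and 1.16 in tumours 1 to 4, against 1.11 in non-tumour 1 and 1.61 to 1.70 in the other non-tumour pieces. The ratio in non-tumour 1 thus lay within the range of the tumours.

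Slc38a2 (chromosome 15, 96687392 to 96699730, minus strand), the system A carrier that cultured cells induce when starved of amino acids, stood at 74.2, 62.9, 74.7 and 61.4 CPM in tumours 1 to 4, against 62.4, 85.3, 87.9 and 90.7 CPM in non-tumour 1 to 4. Non-tumour 1 lay among the tumours. Its log2 fold change was -0.11 (SE 0.21) and the sign turned without the non-tumour 2/3/4 profile (0.17).

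Slc38a1 (chromosome 15, 96571418 to 96642913, minus strand), also a system A carrier, was hardly detected. It had 34, 34, 17 and 19 counts in tumours 1 to 4, against 58, 19, 7 and 21 counts in non-tumour 1 to 4. Non-tumour 1 was the highest library at 2.93 CPM, with an exact 95% Poisson interval of 2.22 to 3.78 CPM that covers counting error only. At this depth even near-identical libraries differed 2.74-fold for Slc38a1 (non-tumour 2 to 4), against 1.05-fold for Slc38a3. Slc38a1 had a log2 fold change of -0.55 (SE 0.52), and 0.40 without non-tumour 1. The 3 genes Slc38a1, Slc38a2 and Slc38a4 lie on the same strand within 485 kb of chromosome 15 (96571418 to 97055956). Of the 7 genes annotated in that interval, the other 4 had at most 1 read over all libraries. Their summed counts over the 8 libraries were 209 for Slc38a1, 10776 for Slc38a2 and 116220 for Slc38a4, so these neighbours differed widely in level.

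The arginine carriers differed in which libraries were high. Slc7a2 (chromosome 8, 40862396 to 40922308, plus strand), the low-affinity carrier of hepatocytes, stood at 200.2, 220.0, 191 and 221 CPM in tumours 1 to 4, against 203, 390, 412 and 399 CPM in non-tumour 1 to 4. Non-tumour 1 lay among the tumours, and non-tumour 2 to 4 were well above them. In edgeR its log2 fold change was -0.57 (SE 0.31), with an adjusted p of 0.995. Without non-tumour 1 it was -0.99 (SE 0.26, edgeR adjusted p = 0.999) and without the non-tumour 2/3/4 profile 0.0055 (SE 0.27, adjusted p = 0.999), so the difference rested on that profile. The annotation gives Slc7a2 5 protein-coding transcripts, which gene counts do not separate.

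Slc7a1 (chromosome 5, 148327410 to 148399904, minus strand), the widespread high-affinity carrier, had 32, 28, 7 and 36 counts in tumours 1 to 4, against 27, 7, 7 and 6 counts in non-tumour 1 to 4. Tumours 1, 2 and 4 and non-tumour 1 were high, and tumour 3 and non-tumour 2 to 4 were low. The 95% Poisson interval was 1.24 to 2.46 CPM in tumour 4, the highest library, and 0.178 to 0.914 CPM in tumour 3. Per length, Slc7a2 exceeded Slc7a1 by a factor of 157 to 544 in tumours, 188 in non-tumour 1 and 1089 to 1344 in the other non-tumour pieces. For Slc7a1 the log2 fold change was 0.47 (SE 0.72), and -0.21 without the non-tumour 2/3/4 profile.

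Slc1a4 (chromosome 11, 20302180 to 20332713, minus strand) encodes an exchanger of alanine, serine, cysteine and threonine and had the largest positive fold change of the set. It stood at 17.8, 22.5, 7.86 and 21.1 CPM in tumours 1 to 4, against 12.8, 7.17, 7.37 and 6.62 CPM in non-tumour 1 to 4. Tumours 1, 2 and 4 were the highest libraries, non-tumour 1 came next, and tumour 3 lay just above the remaining non-tumour pieces. The log2 fold change was 0.68 (SE 0.47) in edgeR over profiles, with an adjusted p of 0.995, and 0.31 to 1.16 with each profile left out in turn. Over the 8 libraries taken as separate it was 1.03 (SE 0.33, edgeR adjusted p = 0.165). When tumour 3 was left out of those 8, Slc1a4 (1.25, SE 0.22, edgeR adjusted p = 0.0106) and Slc38a4 (-0.74, SE 0.15, adjusted p = 0.0178) were called, as were 13.6% of all genes (7.81% higher and 5.8% lower in tumours). With near-identical libraries counted once, leaving out tumour 3 called neither Slc1a4 (adjusted p = 0.382) nor Slc38a4 (0.577). Of the 6 cholangiocyte markers, 2 (Spp1 and Tspan8) were, like Slc1a4, higher in tumours 1, 2 and 4 than in every other library. Spp1 stood at 205.5, 98.4, 19.4 and 102.9 CPM in tumours 1 to 4, against 22.4 to 29.5 CPM in non-tumour pieces, and Tspan8 at 190.2, 83.3, 0.254 and 88.2 CPM in tumours 1 to 4, against 3.85 to 7.82 CPM in non-tumour pieces. The other 4 (Krt7, Krt19, Epcam and Sox9) did not have that order and lay at 0.0987 to 5.84 CPM in tumours and 0.0504 to 4.14 CPM in non-tumour pieces. This order was not particular to cholangiocyte markers. It was also seen in 2 of 4 proliferation markers and 2 of 6 stellate and fibroblast markers. The same held for 1 of 5 hepatocyte, 1 of 4 macrophage and 1 of 3 B cell markers. The part of any of these markers in the result was not tested.

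Promoter stretches from RefSeq (GRCm38.p6) are shown for Slc1a4 and Slc7a1, which shared the libraries where they were high, and for Slc38a4 and Slc38a2, which were high in other libraries. Each runs 5′ to 3′ on the minus strand over 130 bases, with 120 before the start site and 10 from it on, at chr11:20332704-20332833, chr5:148399895-148400024, chr15:97055947-97056076 and chr15:96699719-96699848 in the order shown. Capitals mark TGATGCAA or its reverse complement TTGCATCA, the core letters of the amino acid response element bound by ATF4 with a C/EBP partner.
Slc1a4: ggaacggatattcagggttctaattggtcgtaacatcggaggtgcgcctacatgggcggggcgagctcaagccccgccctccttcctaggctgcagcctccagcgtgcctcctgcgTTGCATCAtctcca
Slc7a1: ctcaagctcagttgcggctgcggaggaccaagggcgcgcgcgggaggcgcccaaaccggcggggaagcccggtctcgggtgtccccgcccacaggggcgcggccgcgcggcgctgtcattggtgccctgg
Slc38a4: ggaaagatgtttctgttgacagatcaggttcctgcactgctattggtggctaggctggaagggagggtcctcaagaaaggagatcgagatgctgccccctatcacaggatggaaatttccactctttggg
Slc38a2: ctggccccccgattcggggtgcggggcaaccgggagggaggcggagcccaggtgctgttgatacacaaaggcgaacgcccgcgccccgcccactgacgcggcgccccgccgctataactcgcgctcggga
Over 300-base promoters (250 before and 50 after the start), searched on both strands, the motif was found for Slc1a4 and for none of the other 5 members with an entry. Those 6 members had 9 promoters in the table, among them 2 for Slc7a1 and 3 for Slc38a4. For each gene shown, the stretch printed is at the start site farthest upstream. Of all 32851 promoters 0.895% held the motif. Its first base lies 4 bases before the start site of Slc1a4. The looser TGATGNAA (3.97% of promoters) matched the same Slc1a4 site and no other member, and the E-box CACGTG (7.15%) was found for Slc43a1 alone of the 6. A match is a description of the letters in this window, and sites outside it, such as in introns, were not searched. The stretches of Slc7a1 and Slc38a2 were rich in G and C (76.2% and 73.1%), and that of Slc38a4 was less so (50.8%).

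Slc7a5 (chromosome 8, 121881150 to 121907694, minus strand), the light chain of the large neutral amino acid exchanger LAT1, had 42, 46, 24 and 42 counts in tumours 1 to 4, against 61, 21, 25 and 21 counts in non-tumour 1 to 4. Non-tumour 1 was the highest library at 3.08 CPM (95% Poisson interval 2.35 to 3.95 CPM), above the tumours at 1.52 to 2.26 CPM. Slc7a5 had a log2 fold change of -0.24 (SE 0.43), and 0.40 without non-tumour 1. Slc38a1 and Slc7a5 were both highest in non-tumour 1, as were 5 of 5 Kupffer cell markers, 5 of 5 endothelial markers and 2 of 4 macrophage markers (Adgre1 and Cd68). The 4 macrophage markers summed to 13.1 to 25.8 CPM in tumours, against 78.6 CPM for non-tumour 1 (61.5 CPM of it Adgre1) and 15.6 to 17.5 CPM for non-tumour 2 to 4, and the 5 endothelial markers to 109 to 139 CPM in tumours, against 222 CPM for non-tumour 1 and 96.4 to 99.4 CPM for non-tumour 2 to 4. Trem2 and Gpnmb, the other macrophage markers, were at 0.353 and 0.504 CPM in non-tumour 1, within the range of the tumours for Gpnmb and below every other library for Trem2. Each of these markers had reads in some library. Of other lists, 1 of 6 stellate and fibroblast, 1 of 5 T cell, 1 of 3 B cell and 1 of 4 neutrophil markers were highest in non-tumour 1. The part of any of these cells in the result was not tested.

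Slc3a2 (chromosome 19, 8706882 to 8723369, minus strand), the heavy chain that brings Slc7a5 and several related light chains to the membrane, varied least. It stood at 31.3, 32.3, 39.6 and 29.5 CPM in tumours 1 to 4, against 32.7, 36.7, 33.8 and 32.2 CPM in non-tumour 1 to 4. Tumour 3 was the highest library and tumours 4 and 1 the lowest, with tumour 2 and the non-tumour pieces between them. Slc3a2 had a log2 fold change of 0.0086 (SE 0.18), and the sign turned with DESeq2 size factors (-0.0020). Per length the heavy chain exceeded Slc7a5 by a factor of 15.0 to 27.4 in tumours and 11.2 to 31.5 in non-tumour pieces. Set against the sum of 6 light chains (Slc7a5, Slc7a6, Slc7a7, Slc7a8, Slc7a10 and Slc7a11), Slc3a2 was 1.62, 1.99, 6.55 and 1.86 times as high in TPM in tumours 1 to 4, against 1.90, 5.24, 5.56 and 4.53 times in non-tumour 1 to 4. The low ratios belong to the same libraries in which Slc7a1 was high. Slc7a7, a light chain that exports arginine and lysine and was named here after its values were seen, gave 8.74 of 11.3 TPM of that sum in tumour 1 but 0.803 of 2.88 TPM in tumour 3. It stood at 14.03, 9.38, 1.58 and 9.43 CPM in tumours 1 to 4, against 8.07, 3.26, 2.18 and 2.93 CPM in non-tumour 1 to 4, with an overlap of the groups at tumour 3 (log2 fold change 0.64, SE 0.85).

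Slc43a1 (chromosome 2, 84838850 to 84863594, plus strand), the sodium-independent carrier LAT3, stood at 4.37, 4.96, 2.98 and 3.65 CPM in tumours 1 to 4, against 3.48, 4.84, 6.14 and 6.37 CPM in non-tumour 1 to 4. Non-tumour 3 and 4 were highest, but the near-identical non-tumour 2 lay below tumour 2, and such libraries differed up to 1.36-fold for this gene. Its log2 fold change was -0.26 (SE 0.33), and 0.16 without the non-tumour 2/3/4 profile.

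**Figure D3:**
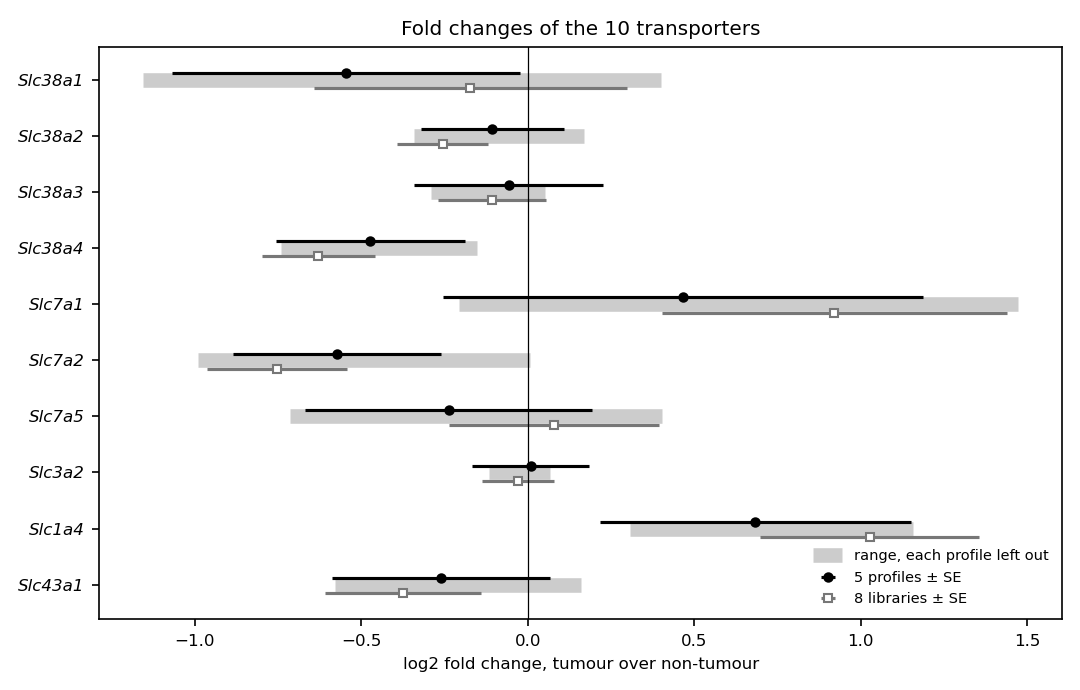
Log2 fold change (tumour over non-tumour) of the 10 members with SE from edgeR over 5 profiles (black circles) and over 8 libraries taken as separate (open squares); grey bars span the values with each profile left out in turn. The grey bars crossed 0 for all members but Slc38a4 and Slc1a4.

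The groups overlapped for all 10 members, but through different profiles. For Slc38a1, Slc38a2, Slc7a2, Slc7a5 and Slc43a1 it was non-tumour 1, with the non-tumour 2/3/4 profile outside the range of the tumours. For Slc38a4, Slc7a1 and Slc1a4 the overlap lay between tumour 3 and non-tumour 1. For Slc38a3 and Slc3a2, tumour 3 lay above both non-tumour profiles and the other tumour profiles lay below them. For 9 of the 10 members the CPM of non-tumour 1 lay nearer to the mean of the tumour profiles than to the non-tumour 2/3/4 profile. The same held for 56.1% of all tested genes, and Slc38a3 was the exception. This measure was chosen after the values were seen and has no test. It includes Slc38a1 and Slc7a5, for which non-tumour 1 lay above every tumour. For Slc3a2 the values were close, at 32.7 CPM in non-tumour 1, a tumour mean of 33.9 CPM and 34.2 CPM in the non-tumour 2/3/4 profile. Among the members, Slc7a1 had the widest range over profiles, 1.74 log2 units, and Slc3a2 the narrowest, 0.36. The genes most like Slc7a1, by the root mean square difference of centred log2 CPM over the 5 profiles among 11372 genes, were Itpripl2 (0.0706), Sowahb (0.0995) and Ppm1h (0.137). Itpripl2 stood at 13.7, 13.2 and 3.99 CPM in tumour profiles 1, 2/4 and 3, against 11.4 and 3.81 CPM in non-tumour profiles 1 and 2/3/4. With 5 profiles this likeness is a description.

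Of 25 other plasma membrane amino acid transporters, 15 could be tested over profiles, and 0 passed edgeR's test, with 3 at an unadjusted p under 0.05. Their median log2 fold change was -0.09. The 5 most abundant were the taurine and GABA carrier Slc6a13, the betaine carrier Slc6a12, the heavy chain Slc3a1, the taurine carrier Slc6a6 and the aromatic amino acid carrier Slc16a10. Slc6a13 averaged 116 ± 16.5 TPM in tumours (SD, n = 3) and 121 ± 29.7 TPM in non-tumour tissue (SD, n = 2), the most abundant of all 35 transporters after Slc38a4 and Slc38a3. Slc6a12 averaged 38.4 ± 3.70 TPM in tumours and 38.1 ± 1.16 TPM in non-tumour tissue, and Slc6a6 averaged 16.8 ± 8.22 TPM in tumours and 21.7 ± 2.61 TPM in non-tumour tissue.

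The groups did not overlap for 2 of the 15, Slc3a1 and Slc16a10, both lower in tumours, a share near that of all tested genes (18.3%, or 8.32% lower in tumours). Slc3a1, which pairs with Slc7a9, stood at 34.2, 25.1, 32.1 and 26.1 CPM in tumours 1 to 4, against 39.6, 52.1, 51.9 and 53.4 CPM in non-tumour 1 to 4 (log2 fold change -0.60, SE 0.21, edgeR adjusted p = 0.995). Slc16a10 stood at 47.1, 56.4, 55.1 and 55.3 CPM in tumours 1 to 4, against 75.8, 78.4, 79.3 and 75.8 CPM in non-tumour 1 to 4 (-0.55, SE 0.16, adjusted p = 0.995). Unlike for most members, non-tumour 1 lay with the other non-tumour pieces for Slc16a10. Over the 8 libraries taken as separate, Slc16a10 was the 1 gene of the list that was called (edgeR adjusted p = 0.0430). That setting counts near-identical libraries as replicates, and 0.435% of all genes were called in it. With a block for the replicate number added, Slc16a10 was not called (edgeR adjusted p = 0.0717). Slc7a11, the cystine light chain, named here after its values were seen, had 17, 19, 0 and 24 counts in tumours 1 to 4, against 1, 0, 0 and 1 counts in non-tumour 1 to 4. A count of 0 in tumour 3 allows up to 0.190 CPM on the TMM scale.

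**Figure D4:**
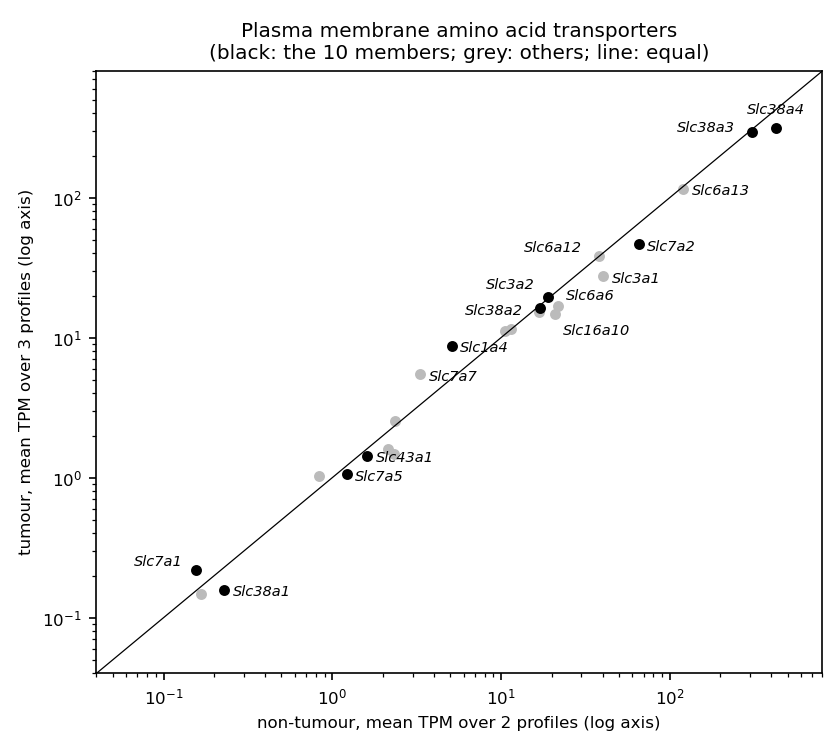
Mean TPM of plasma membrane amino acid transporters in tumours (vertical, 3 profiles) against non-tumour tissue (horizontal, 2 profiles), both on log axes; black points are the 10 members, grey points others, and the line marks equal levels. The 24 of 35 transporters with at least 0.05 TPM in both groups are drawn, with Slc38a4 and Slc7a2 below the line and Slc1a4 and Slc7a7 above it.

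Genes of the amino acid response, among them Atf4 and its targets, were listed beside the members because several carriers are known ATF4 targets. All 18 were tested over profiles, 15 had a positive fold change, and 0 passed edgeR's test, with 5 at an unadjusted p under 0.05. Of all 13650 genes in that test, 7121 had a positive fold change and 451 such a p. The median log2 fold change of the 18 was 0.56, beside 0.01 for all tested genes. Among the 5, Cth, named after its values were seen, was lower in tumours (log2 fold change -1.11, SE 0.43, edgeR adjusted p = 0.995). Tumours lay at 174 to 209 CPM for Cth. Non-tumour 1 was just above them at 211 CPM, while the remaining non-tumour pieces reached 607 to 619 CPM. Ddit3, which encodes the stress factor CHOP, stood at 9.29, 7.66, 7.61 and 7.85 CPM in tumours 1 to 4, against 3.58, 4.31, 4.02 and 3.93 CPM in non-tumour 1 to 4. Every tumour was above every non-tumour piece, tumour 3 included (log2 fold change 1.08, SE 0.22, edgeR adjusted p = 0.995; 1.03, SE 0.13, adjusted p = 0.0272 over 8 libraries). Trib3, a pseudokinase induced by ATF4, stood at 24.3, 30.7, 7.86 and 30.5 CPM in tumours 1 to 4, against 5.20, 9.21, 6.82 and 7.68 CPM in non-tumour 1 to 4 (1.66, SE 0.57, adjusted p = 0.995). Nupr1, a small stress-induced chromatin protein, stood at 3.01, 3.49, 1.58 and 4.29 CPM in tumours 1 to 4, against 1.46, 0.524, 0.614 and 1.06 CPM in non-tumour 1 to 4, with tumour 3 just above non-tumour 1 (1.41, SE 0.53). Atf4 itself stood at 98.4 to 131 CPM in tumours and 88.2 to 93.7 CPM in non-tumour pieces. The response genes differed among themselves in tumour 3. Atf3, a stress-induced transcription factor named after its values were seen, stood at 3.96, 4.91, 0.888 and 6.76 CPM in tumours 1 to 4, against 2.47, 1.22, 0.819 and 0.562 CPM in non-tumour 1 to 4. Psat1, an enzyme of serine synthesis named in the same way, stood at 36.0, 18.7, 0.634 and 19.3 CPM in tumours 1 to 4, against 2.62, 1.17, 1.23 and 1.31 CPM in non-tumour 1 to 4. Tumour 3 was thus below tumours 1, 2 and 4 and near or below the non-tumour pieces for Atf3 and Psat1, and non-tumour 1 was the highest non-tumour piece, as for Slc1a4. Non-tumour 1 was also the highest non-tumour piece for Atf4, Atf5, Phgdh, Mthfd2 and Nupr1. It was the lowest for Ddit3, Trib3, Asns, Chac1, Sesn2, Shmt2, Ppp1r15a and Cth, and in between for Psph, Vldlr and Aldh1l2. Asns stood at 2.72 CPM in non-tumour 1, against 5.53 to 5.93 CPM in non-tumour 2 to 4.

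**Figure D5:**
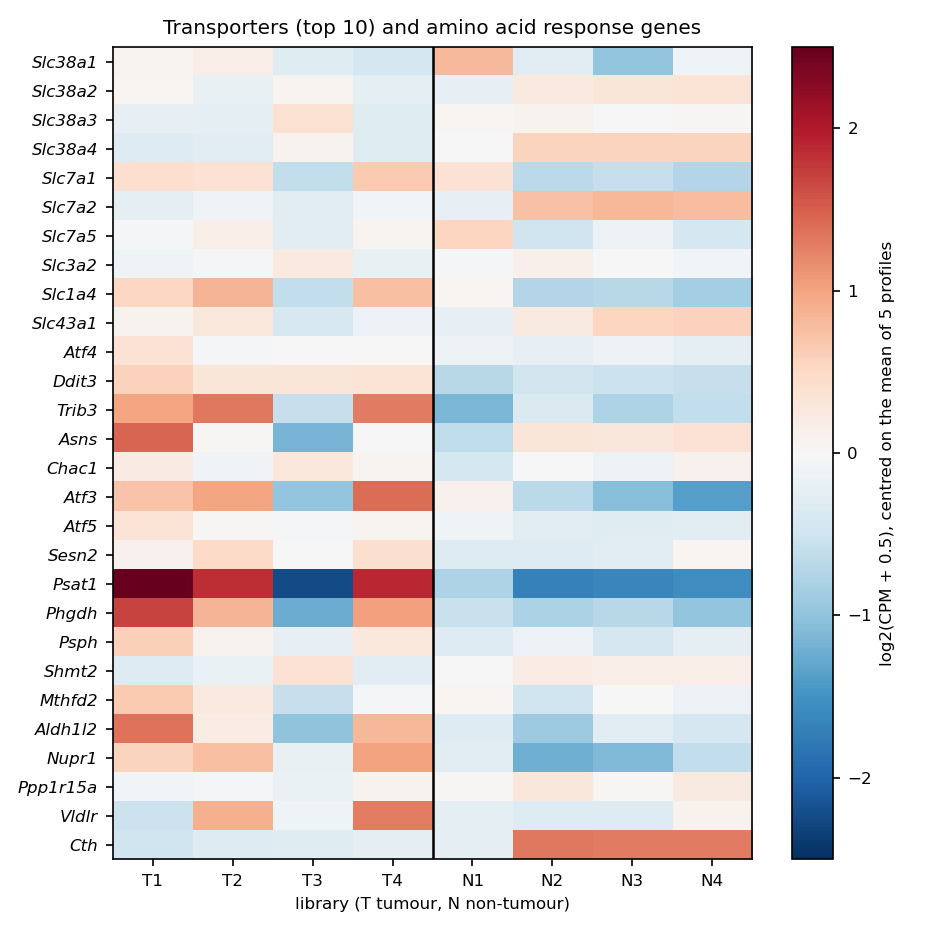
Log2(CPM + 0.5) of the 10 members (top) and 18 amino acid response genes in tumour libraries T1 to T4, left of the line, and non-tumour libraries N1 to N4, each gene centred on the mean of the 5 profiles. Ddit3 was higher in every tumour library, Slc1a4 and Trib3 were higher in T1, T2 and T4, and Slc7a2 and Cth were higher in N2 to N4.

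Enzymes that use the carriers' substrates were also listed. Of 18, 16 were tested and 0 passed edgeR's test (0 at an unadjusted p under 0.05), with a median log2 fold change of -0.15 and 11 negative values. Tat, tyrosine aminotransferase, stood at 483, 458, 464 and 442 CPM in tumours 1 to 4, against 481, 1132, 1133 and 1139 CPM in non-tumour 1 to 4 (log2 fold change -0.81, SE 0.37). Gls2, liver glutaminase, stood at 208, 178, 173 and 178 CPM in tumours 1 to 4, against 195, 396, 393 and 391 CPM in non-tumour 1 to 4 (-0.67, SE 0.32). In both genes, as for Slc7a2, non-tumour 1 lay among the tumours and non-tumour 2 to 4 were above them. Got1, aspartate aminotransferase, had a log2 fold change of -0.53 (SE 0.26). Arg1, which splits arginine, was named after its values were seen and stood at 650.0, 661, 1011 and 673 CPM in tumours 1 to 4, against 689, 1310.1, 1348 and 1333 CPM in non-tumour 1 to 4.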

How the data were processed

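The authors deposited, for each sample, a table of raw counts over 54838 genes. These were made, per the file headers, with featureCounts 1.6.2 over exons of Ensembl release 95 (GRCm38) with strand setting 2. STAR 2.5.0 and Subread 1.6.2 are named in the submitters' processing notes. No gene overlaps a member on its own strand.

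Symbols came from a GENCODE table (54723 of 54838 IDs matched). Pairs of libraries under a chi-square of 10 per degree of freedom (genes with 20 or more reads) were joined by summing counts, giving 5 profiles. edgeR 4.0.16 in R 4.3.3 tested tumour against non-tumour with TMM, filterByExpr (minimum count 10, total 15), robust glmQLFit and glmQLFTest, and Benjamini-Hochberg adjustment over all genes at 0.05. SEs were taken as the absolute log2 fold change over the square root of F. CPM uses TMM-scaled totals of the 8 libraries. TPM uses the deposited exon lengths, summed over all transcripts of a gene. A count of 0 is read as up to 3 counts, which covers counting error only. Alternatives were other scalings, filters, DESeq2 1.42.0, limma 3.58.1 voom, 8 separate libraries, a replicate block and each profile left out. The edgeR fit over 5 profiles, and no other step, was tested on simulated counts with known fold changes. These were drawn with the same dispersion for all genes and with independent profiles. They therefore cannot show how many true differences the fit misses in these data.

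Members, lists and tests were chosen with earlier results of these data known. All members were named. Of other transporters the 5 highest in TPM were named, and of the response genes and enzymes the 3 with the lowest p. Likeness was computed for the member of widest range, among genes of at least 1 CPM with a symbol that is no predicted-gene name and a prior count of 2. Cell type markers are given beside Slc1a4, Slc38a1 and Slc7a5, with the count of each list that shared the order of libraries. T cell, B cell, neutrophil, stellate cell and proliferation markers were listed too. They had 0 genes called over profiles, but so had all 13650 genes, so this does not show that they were level. Their median log2 fold changes were -0.56, 0.53, -0.39, 0.29 and 0.66 in that order.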

Additional observations from a re-analysis of the deposited data

How the results depend on the processing

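The main limit is 3 tumour against 2 non-tumour profiles. Over profiles edgeR called 0 genes and 0 members, and these counts were also 0 with 1 library in place of each sum, the 3 other scalings, the 10 most abundant genes left out, a mean of at least 1 CPM and limma voom. The count of genes was 56 with 8 libraries as separate replicates, 427 with no filter, 2 with DESeq2, and 1798 with 8 libraries without tumour 3, where 2 members were called. Leaving out each profile gave 0 to 5 genes, the 5 without tumour 3, and 0 members each time. The labels number the pieces 1 to 4 in each group without saying what a number marks. Deviations of same-numbered libraries from their group means correlated at 0.40, -0.24, 0.33 and -0.22. Tumours 2 and 4 correlated best with non-tumour 1 (0.30 each). These values cannot decide on pairing, because non-tumour 2, 3 and 4 are near-identical and so are their deviations. The numbers were not taken to pair the pieces, since the labels do not say that they do. With the replicate block over 8 libraries, 0 genes and 0 members were called. Of the 120 member fold changes under alternatives other than leaving out a profile, 107 kept direction and side of the threshold and 11 changed sign. These were Slc7a5 with 8 libraries (0.079), the replicate block (0.15), limma voom (0.031) and 8 libraries without tumour 3 (0.17), and Slc3a2 with 8 libraries (-0.029), the replicate block (-0.036), 1 library in place of each sum (-0.017), DESeq2 size factors (-0.0020), no filter (-0.027), DESeq2 (-0.0031) and 8 libraries without tumour 3 (-0.13). Slc6a12 turned to 0.0061 with upper-quartile scaling. The cause was not tested. With a profile left out the ranges were -1.16 to 0.40 for Slc38a1, -0.34 to 0.17 for Slc38a2, -0.29 to 0.052 for Slc38a3, -0.21 to 1.47 for Slc7a1, -0.99 to 0.0055 for Slc7a2, -0.72 to 0.40 for Slc7a5, -0.12 to 0.067 for Slc3a2, -0.58 to 0.16 for Slc43a1, -0.36 to 0.22 for Slc6a13 and -0.17 to 0.073 for Slc6a12. TPM moved by more than 1 SD in 12 of 40 cases, all higher with the 10 most abundant genes left out. Depth limits Slc38a1, Slc7a1 and Slc7a5, which had at most 61 counts in a library.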
